A study of Mus musculus with 2 samples.

Results

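Checkpoint ligands and costimulators are surface proteins through which tumor and myeloid cells switch T cells off or on. The 10 genes described here are Cd274, Pdcd1lg2, Cd80, Cd86, Pvr, Nectin2, Lgals9, Cd276, Vsir and Cd47. They were chosen by symbol from the 55450 genes listed for each library, and all 10 were found. Their expression was read in single-cell RNA sequencing of EMT6 tumors, a mouse mammary carcinoma line grown in BALB/c mice that keep their immune system. Both groups received Olaparib, a PARP inhibitor, at 50 mg/kg and LLY-283, a PRMT5 inhibitor, at 50 mg/kg in cycles of 3 days of dosing and 4 days of rest. Mice of the Combo group also received 200 µg of anti-PD-1 antibody every 3 days. Each mouse was injected with 200000 cells, and 3 mice were pooled for each group, so there was 1 library per group and no library of untreated tumors.

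PD-L1, encoded by Cd274, and PD-L2, encoded by Pdcd1lg2, bind PD-1 on T cells and inhibit them. CD80 and CD86 bind CD28, which activates T cells, and CTLA-4, which restrains them, and both are typical of antigen-presenting cells. PVR and Nectin-2 bind the inhibitory receptor TIGIT and the activating receptor CD226, galectin-9 (Lgals9) binds TIM-3, VISTA (Vsir) is an inhibitory protein of myeloid cells, B7-H3 (Cd276) is a B7 family protein common on tumor and stromal cells, and CD47 binds SIRPα on phagocytes and restrains engulfment.

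With 1 library per group there is no replicate, so no p-value is given, and anti-PD-1, the mice pooled and library preparation cannot be told apart. Intervals are exact and cover counting error only. Levels are unique molecular identifiers (UMIs) summed over a class of cells and divided by all UMIs of that class, scaled to 1000000 (CPM), a unit without gene length. Values are given in the order Olaparib + LLY-283, called the first library below, then Combo. The filter kept 13960 of 16115 and 5660 of 7542 deposited cells. At least 20% of UMIs were mitochondrial in 21.0% of Combo cells and in 0.534% of the others, and 39 cell barcodes occurred in both libraries. Tumor-like cells numbered 10756 and 2508, with medians of 8523 and 48468 UMIs per cell. Macrophage-like cells numbered 668 and 478, neutrophil-like cells 637 and 1257, cancer-associated fibroblast (CAF)-like cells 238 and 64, dendritic cell (DC)-like cells 118 and 78, T-like cells 82 and 57, monocyte-like cells 78 and 84, and myogenic-like cells 41 and 50. Each of these classes was deeper per cell in Combo except myogenic-like cells, so shares of cells with a UMI are given after each cell was thinned to 1000 UMIs, with shallower cells left out.

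The names were checked against markers. Tumor-like cells carried Krt8 at 803 and 783 CPM, Sfn at 167 and 148 CPM and Krt18 at 102 and 77.6 CPM. The other epithelial markers were low, among them Epcam with 3.49 and 3.13 CPM, Cdh1 with 9 and 14 UMIs and Cldn7 with 0 and 1 UMI. DC-like cells had no UMI of Flt3 or Clec9a in the first library and 32 and 6 in Combo, and their C1qa, a macrophage gene, reached 33.3% and 51.1% of the macrophage-like level. Summed T cell markers had 3870 and 2972 CPM in T-like cells, against 5.52 and 5.64 CPM in tumor-like cells. T-like cells held a UMI of 11 of 12 and 12 of 12 of these markers. That count does not set them apart, since tumor-like cells held 12 of 12 in both libraries. Free RNA from broken cells reaches every droplet. Krt8 in macrophage-like cells was 24.2% and 12.5% of its tumor-like level, and in neutrophil-like cells 43.4% and 26.1%, so levels of that relative size in a class may be background.

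Members of the set lie in groups on the chromosomes (GENCODE M21, build GRCm38). Cd274 (chr19:29367455-29388095, plus strand) and Pdcd1lg2 (chr19:29410919-29471161, plus strand) are neighbors 22.82 kb apart with 0 protein-coding genes between them. Pvr (chr7:19903578-19921160, minus strand) and Nectin2 (chr7:19716644-19750483, minus strand) are 153.1 kb apart with 6 protein-coding genes between them. Cd86 (chr16:36603869-36666081, minus strand) and Cd80 (chr16:38455561-38496335, plus strand) are 1.789 Mb apart with 25 between them, and Cd47 (chr16:49800533-49915010, plus strand) lies on the same chromosome. Lgals9 (chr11:78962974-78984946, minus strand), Cd276 (chr9:58524298-58555437, minus strand) and Vsir (chr10:60346851-60372684, plus strand) lie alone. None of the 10 overlaps another gene on its own strand.

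The promoters of Cd274, Lgals9 and Cd47 are shown because these 3 genes were highest in the same tumor-like cluster, which was led by interferon-induced genes (described after the values by class). Each runs from 250 bases before to 50 bases after the RefSeq start (build GRCm38.p6), is written 5′ to 3′ on the strand of the gene, and has in capitals the matches to motifs of interferon-regulated promoters. The positions are chr19:29367188-29367487 (plus strand) for Cd274, chr11:78984875-78985174 (minus strand) for Lgals9 and chr16:49855404-49855703 (plus strand) for Cd47, the last from 2 listed starts.
Cd274: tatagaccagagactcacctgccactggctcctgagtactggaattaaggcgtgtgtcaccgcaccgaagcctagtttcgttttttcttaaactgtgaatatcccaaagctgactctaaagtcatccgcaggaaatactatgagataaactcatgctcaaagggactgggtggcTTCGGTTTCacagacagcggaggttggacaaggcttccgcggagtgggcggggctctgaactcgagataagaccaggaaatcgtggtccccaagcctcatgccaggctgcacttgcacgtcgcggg
Lgals9: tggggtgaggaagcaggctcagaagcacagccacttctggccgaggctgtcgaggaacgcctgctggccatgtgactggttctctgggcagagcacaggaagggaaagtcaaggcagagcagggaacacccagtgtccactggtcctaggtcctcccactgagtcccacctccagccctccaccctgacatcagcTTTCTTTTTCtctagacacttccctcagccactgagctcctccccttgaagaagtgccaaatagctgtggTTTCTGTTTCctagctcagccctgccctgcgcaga
Cd47: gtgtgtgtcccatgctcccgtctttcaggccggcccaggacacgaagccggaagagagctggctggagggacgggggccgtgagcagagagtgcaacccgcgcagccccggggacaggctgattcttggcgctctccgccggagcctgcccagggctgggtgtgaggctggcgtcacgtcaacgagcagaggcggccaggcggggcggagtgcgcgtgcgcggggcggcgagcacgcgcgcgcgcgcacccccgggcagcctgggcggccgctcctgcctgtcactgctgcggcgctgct

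The motif searched first was the core of the interferon-stimulated response element, GAAA, then any 2 bases, then GAAA, on both strands. It occurred in 3.99% of 27025 promoters and among the members in Lgals9 alone, at −55 to −46 and 16 to 25 relative to the start. A form 1 base shorter, GAAANNGAA, which every match to the first also holds, was added after that search and occurred in 9.76% of promoters. It was found in Cd274, at −76 to −68, and in Lgals9. The STAT-type motif TTCNNNGAA, in 9.55% of promoters, was in none of the 8 members with a promoter in the table. Cd47 held none of the 3 motifs, and its window was rich in C and G, with 74% GC and 35 CpG against medians of 52.67% and 7 over all promoters. A match is a description of the sequence, and no match speaks only for these letters in this window. Cd86 and Pvr were not in the promoter table.

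Cd274 was highest in neutrophil-like cells in both libraries. It had 125 UMIs there (first library) and 706 UMIs (Combo), or 272 CPM (95% interval 227 to 324) and 279 CPM (258 to 300). The log2 ratio (Combo over Olaparib + LLY-283, as for every log2 ratio below) was 0.03 (−0.24 to 0.32). This near-equality depended on how cells were classed, since the Cd274 ratio was 1.25 with 50 principal components, at 80.5 and 191 CPM, and 1.12 with cells classed by their own marker UMIs. After thinning, 21.6% of 51 cells (11.3 to 35.3) and 15.5% of 1152 cells (13.5 to 17.8) held a Cd274 UMI, against 0.29% and 0.241% of tumor-like cells thinned to the same depth. The next named class was 3.16 and 4.79 times lower than neutrophil-like cells, and its interval did not meet theirs in either library.

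Below neutrophil-like cells, Cd274 was similar in DC-like, monocyte-like and T-like cells. DC-like cells had 81.2 CPM (50.3 to 124) from 21 UMIs and 58.2 CPM (42.8 to 77.4) from 47 UMIs. Monocyte-like cells had 83.4 CPM (41.6 to 149) and 42.0 CPM (28.5 to 59.6), and T-like cells 86.0 CPM (34.6 to 177) and 53.8 CPM (32.4 to 84.0), so the order of these 3 classes cannot be read at this depth. Macrophage-like cells, from the named clusters only, were lower, with 25.4 CPM (18.3 to 34.3) and 22.9 CPM (19.3 to 27.0). Tumor-like cells had 2.67 CPM (2.37 to 2.99) from 293 UMIs and 3.54 CPM (3.22 to 3.88) from 451 UMIs. Myogenic-like cells had 0 UMIs in both libraries.

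Tumor-like cells held 92.6% and 85.6% of all UMIs, and their share of Cd274 UMIs was large despite the low level. They gave 47.3% of 620 and 25.6% of 1760 Cd274 UMIs, and neutrophil-like cells gave 20.2% and 40.1%. Neutrophil-like cells held 0.387% and 1.70% of all UMIs of the libraries. The tumor-like level of Cd274 was 0.98% and 1.27% of that in neutrophil-like cells. Among S100a8, S100a9, Csf3r and Retnlg, the tumor-like level reached at most 0.239% (Csf3r) of the neutrophil-like level in the first library and 0.231% (Csf3r) in Combo. The part of free RNA in the tumor-like Cd274 level was not tested.

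The highest Cd274 level of any group was in an unnamed cluster of 19 and 152 cells led by Rhov, Hcar2 and E230032D23Rik. It had 881 CPM (455 to 1539) from 12 UMIs and 784 CPM (667 to 915) from 160 UMIs. This cluster held 10 of 10 neutrophil markers over 2-fold above the other cells but none of them among its 10 leading genes, which included the monocyte marker F10, and this left it without a name. A second unnamed cluster, led by Mmp12, Fabp5 and Arg1, had 125 CPM (97.4 to 158) and 157 CPM (132 to 186) in 250 and 98 cells. It held 10 of 10 macrophage markers over 2-fold above the other cells. At low depth it had none of them among its 10 leading genes, and this left it without a name. The macrophage-like level of Cd274 leaves this cluster out. Both unnamed clusters were above the macrophage-like level in both libraries.

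Pdcd1lg2 was the rarest member, with 45 and 166 UMIs over all cells. Neutrophil-like cells had 20 UMIs, 43.5 CPM (26.6 to 67.2), and 50 UMIs, 19.7 CPM (14.6 to 26.0). DC-like cells had 3 UMIs, 11.6 CPM (2.39 to 33.9), and 39 UMIs in 17 cells, 48.3 CPM (34.3 to 66.0). T-like cells had 3 UMIs, 36.9 CPM (7.60 to 108), and 27 UMIs in 12 cells, 76.4 CPM (50.4 to 111). The class with the highest level therefore differed between libraries, neutrophil-like in the first and T-like in Combo, but the intervals of the leading classes met. In Combo 5 cells held 74.1% of the T-like Pdcd1lg2 UMIs, and the summed DC markers in T-like cells were 209 and 640 CPM, whose part in the result was not tested.

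The DC-like log2 ratio of Pdcd1lg2 was 2.06 (0.40 to 4.40), and the neutrophil-like ratio was −1.14 (−1.92 to −0.32). These counts were under the 100 UMIs set as the minimum for calling a difference, and 5 cells held 64.1% of the DC-like UMIs in Combo. After thinning, a UMI was found in 1.02% and 2.63% of DC-like cells. Tumor-like and macrophage-like cells were almost without the gene, at 0.0819 and 0.125 CPM and at 2.42 and 0.164 CPM. The unnamed cluster led by Rhov and Hcar2 had 127 CPM (83.2 to 187) from 26 UMIs in Combo and 3 UMIs in the other library, while the cluster led by Mmp12 and Fabp5, positive for Cd274, had 0 UMIs of Pdcd1lg2 in both libraries.

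**Figure D1:**
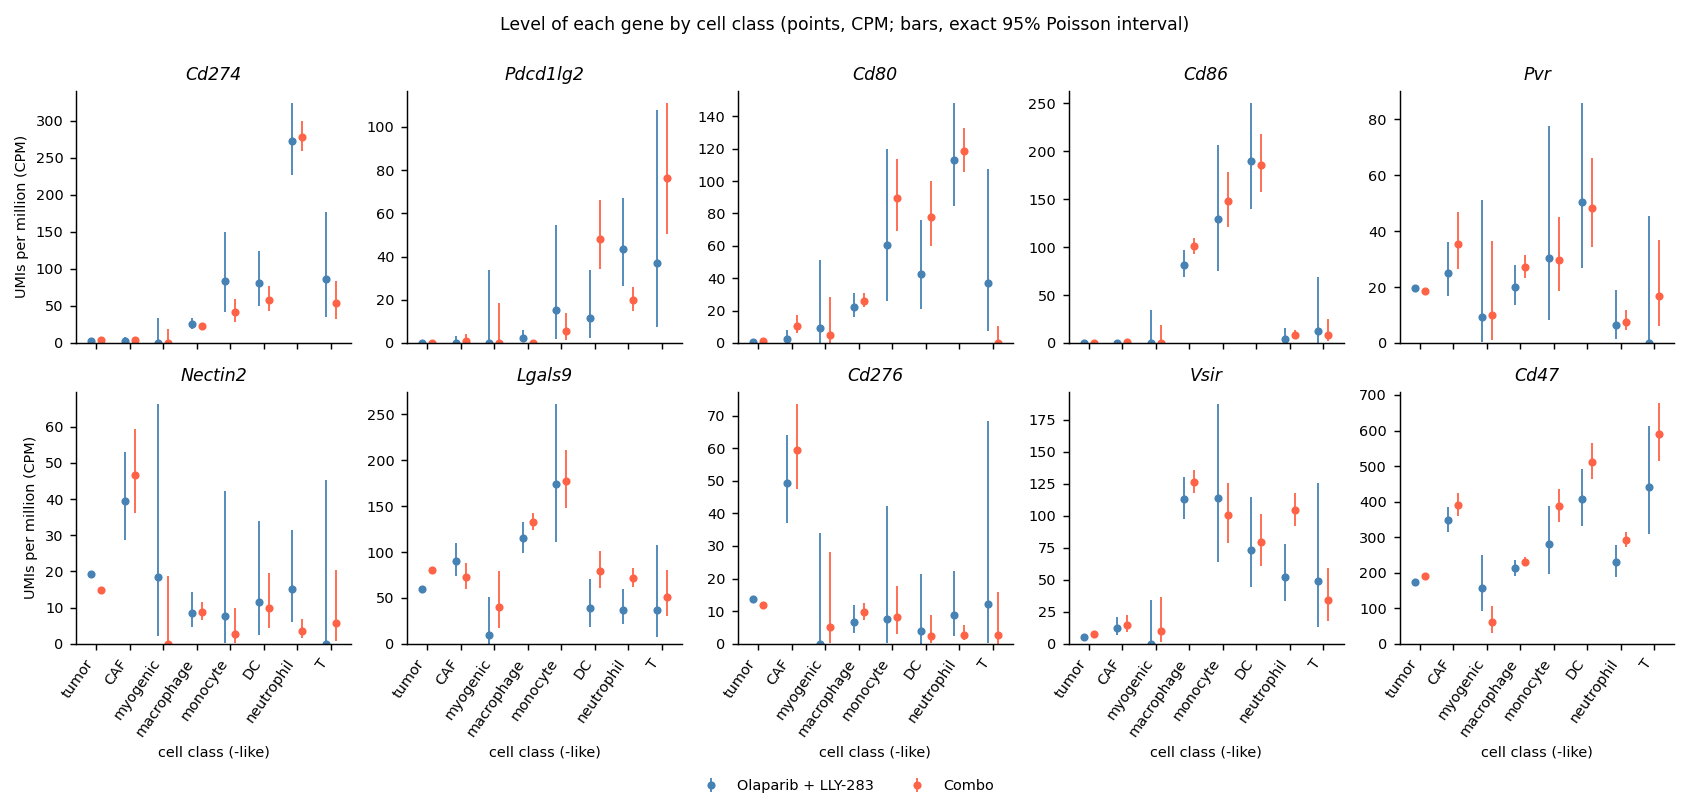
Level of each of the 10 genes (CPM of summed UMIs, a separate linear axis from 0 for each gene) in the named classes with at least 20 cells in both libraries, with exact 95% Poisson intervals, for the Olaparib + LLY-283 and Combo libraries. Cd274 stands highest in neutrophil-like cells (272 and 279 CPM), Cd86 in DC-like cells (190 and 186 CPM) and Cd276 in CAF-like cells (49.2 and 59.5 CPM).

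The CD28 and CTLA-4 ligands had different carriers. Cd80 was highest in neutrophil-like cells, with 52 UMIs, 113 CPM (84.5 to 148), and 300 UMIs, 118 CPM (105 to 133), and a log2 ratio of 0.06 (−0.36 to 0.52). Monocyte-like cells followed with 60.7 CPM (26.2 to 120) and 89.4 CPM (69.2 to 114). After thinning, 13.7% and 10.8% of neutrophil-like and 11.5% and 10.7% of monocyte-like cells held a UMI, shares that could not be separated at this depth. DC-like cells had 11 UMIs, an interval of 21.2 to 76.1 CPM, and 63 UMIs, 78.0 CPM (60.0 to 99.8). Tumor-like cells were near 0, at 0.719 and 1.06 CPM.

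Cd86 followed antigen-presenting cells and was almost missing from neutrophil-like cells. DC-like cells had 49 UMIs, 190 CPM (140 to 251), and 150 UMIs, 186 CPM (157 to 218). Monocyte-like cells had 129 CPM (75.1 to 206) and 148 CPM (121 to 178), and macrophage-like cells 81.6 CPM (68.4 to 96.6) from 135 UMIs and 101 CPM (93.2 to 109) from 617 UMIs. Neutrophil-like cells had only 2 and 22 UMIs, or 4.35 and 8.68 CPM. The order DC-like, monocyte-like, macrophage-like held in both libraries, and the DC-like and macrophage-like intervals did not meet, whereas monocyte-like cells overlapped DC-like cells in both.

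After thinning, the share with a Cd86 UMI was 21.4% (98 DC-like cells) and 18.4% (76 cells), against 7.86% and 11.3% for macrophage-like cells. Among tumor-like cells it was 0.0468% and 0.0402%, and their level was 0.4% of that in macrophage-like cells in both libraries. C1qa in tumor-like cells reached 0.324% of its macrophage-like level. Summed macrophage markers had 83.3 and 96.1 CPM in tumor-like cells, against 17258 and 14807 CPM in macrophage-like cells. The part of free RNA in the tumor-like Cd86 level was not tested. Macrophage-like cells supplied 48.0% of 281 and 58.3% of 1059 Cd86 UMIs.

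Pvr and Nectin2, both of the nectin family, were found in tumor and stroma, and Pvr also in DC-like, monocyte-like and macrophage-like cells. Pvr had 2155 and 2390 UMIs in tumor-like cells, or 19.6 CPM (18.8 to 20.5) and 18.7 CPM (18.0 to 19.5), and a log2 ratio of −0.07. DC-like cells were higher, at 50.3 CPM (26.8 to 86.0) from 13 UMIs and 48.3 CPM (34.3 to 66.0) from 39 UMIs, and CAF-like cells had 25.1 CPM (16.7 to 36.2) and 35.4 CPM (26.3 to 46.7). Monocyte-like cells had 30.3 and 29.8 CPM from 4 and 22 UMIs, and macrophage-like cells 19.9 and 27.2 CPM from 33 and 166 UMIs. Neutrophil-like cells had 6.53 and 7.50 CPM from 3 and 19 UMIs, 33.3% and 40.0% of the tumor-like level, beside 43.4% and 26.1% for Krt8 in these cells.

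Among classes with at least 20 cells in both libraries, Nectin2 was highest in CAF-like cells, with 44 UMIs, 39.4 CPM (28.6 to 52.9), and 66 UMIs, 46.8 CPM (36.2 to 59.5). Tumor-like cells had 2131 UMIs, 19.4 CPM (18.6 to 20.2), and 1912 UMIs, an interval of 14.3 to 15.7 CPM. The CAF-like interval lay above the tumor-like interval in both libraries. The small endothelial-like group of 29 and 8 cells was higher still, with 103 CPM (56.4 to 173) from 14 UMIs and 267 CPM (184 to 375) from 33 UMIs. Immune classes were lower by CPM, with 8.46 and 8.84 CPM in macrophage-like cells. Neutrophil-like cells had 15.2 CPM from 7 UMIs and 3.55 CPM from 9 UMIs. By thinned share, however, neutrophil-like cells were the highest of these classes in the first library. Their share was lower in Combo by 5.62 percentage points (Combo minus first library −5.62, −15.7 to −1.73). These shares rest on at most 7 and 9 UMIs, and few neutrophil-like cells of the first library were deep enough to be thinned. The highest class by share in that library also changed with doublets kept, at either other resolution and with a mitochondrial limit of 10%. It changed as well with 50 principal components, with cells classed by their own marker UMIs and without thinning.

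Lgals9 was high in mononuclear phagocytes and was also carried by tumor cells. Monocyte-like cells had 23 UMIs, 174 CPM (111 to 262), and 131 UMIs, with an interval of 148 to 211 CPM. Macrophage-like cells had 190 UMIs, 115 CPM (99.1 to 132), and 812 UMIs, 133 CPM (124 to 142). CAF-like cells had 90.4 and 73.0 CPM, and DC-like cells 38.7 and 79.3 CPM from 10 and 64 UMIs. The few endothelial-like cells had 147 and 307 CPM from 20 and 38 UMIs, in Combo above the monocyte-like 177 CPM. Tumor-like cells had 6585 UMIs, 59.9 CPM (58.5 to 61.4), and 10222 UMIs, 80.1 CPM (78.6 to 81.7). The tumor-like interval was higher in Combo, with a log2 ratio of 0.42 (0.37 to 0.46), and thinned shares were 5.85% and 8.01%, a difference of 2.16 percentage points (1.06 to 3.37).

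Vsir was a myeloid gene in these tumors. Macrophage-like cells had 187 UMIs, 113 CPM (97.4 to 130), and 773 UMIs, with an interval of 118 to 136 CPM. Monocyte-like cells had 114 CPM (63.7 to 188) and 100.3 CPM (78.7 to 126), and DC-like cells had 73.5 and 79.3 CPM. The intervals of these 3 classes met in the first library, where monocyte-like cells were nominally highest. In Combo macrophage-like cells were highest, and DC-like cells (61.0 to 101) lay below them. Tumor-like cells had 592 UMIs, 5.39 CPM (4.96 to 5.84), and 940 UMIs, 7.37 CPM (6.90 to 7.85), 4.8% and 5.8% of the macrophage-like level. Tumor-like cells nevertheless gave 61.5% of 962 and 40.1% of 2344 Vsir UMIs.

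Cd276 belonged to tumor and stroma. CAF-like cells had 55 UMIs, 49.2 CPM (37.1 to 64.1), and 84 UMIs, 59.5 CPM (47.5 to 73.7). Tumor-like cells had 1513 UMIs, 13.8 CPM (13.1 to 14.5), and 1512 UMIs, an interval of 11.3 to 12.5 CPM, so the CAF-like level was 3.58 and 5.02 times higher. The few endothelial-like cells had 59.0 and 113 CPM of Cd276 from 8 and 14 UMIs. In thinned cells the shares were 6.93% and 11.1% in CAF-like against 1.08% and 1.09% in tumor-like cells. The 1 and 2 UMIs in DC-like cells and 4 and 7 in neutrophil-like cells were too few to set apart from free tumor RNA. The neutrophil-like values were 63.2% and 23.3% of the tumor-like level, beside 43.4% and 26.1% for Krt8.

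Cd47 was found in every class and was the most abundant member. T-like cells had 36 UMIs, 442 CPM (310 to 612), and 209 UMIs, 592 CPM (514 to 677). DC-like cells had 406 CPM (332 to 492) and 513 CPM (465 to 565), CAF-like cells 349 CPM (315 to 386) and 391 CPM (359 to 425), and neutrophil-like cells 231 CPM (189 to 279) and 292 CPM (272 to 314). Tumor-like cells were lower than these 4 classes, at 175 CPM (173 to 178) from 19260 UMIs and 191 CPM (189 to 194) from 24399 UMIs. Myogenic-like cells had 156 and 60.8 CPM. The order of all 8 classes was the same in both libraries, and T-like and DC-like intervals met in both. Thinned shares were 43.3% and 42.6% in T-like and 16.0% and 16.7% in tumor-like cells.

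**Figure D2:**
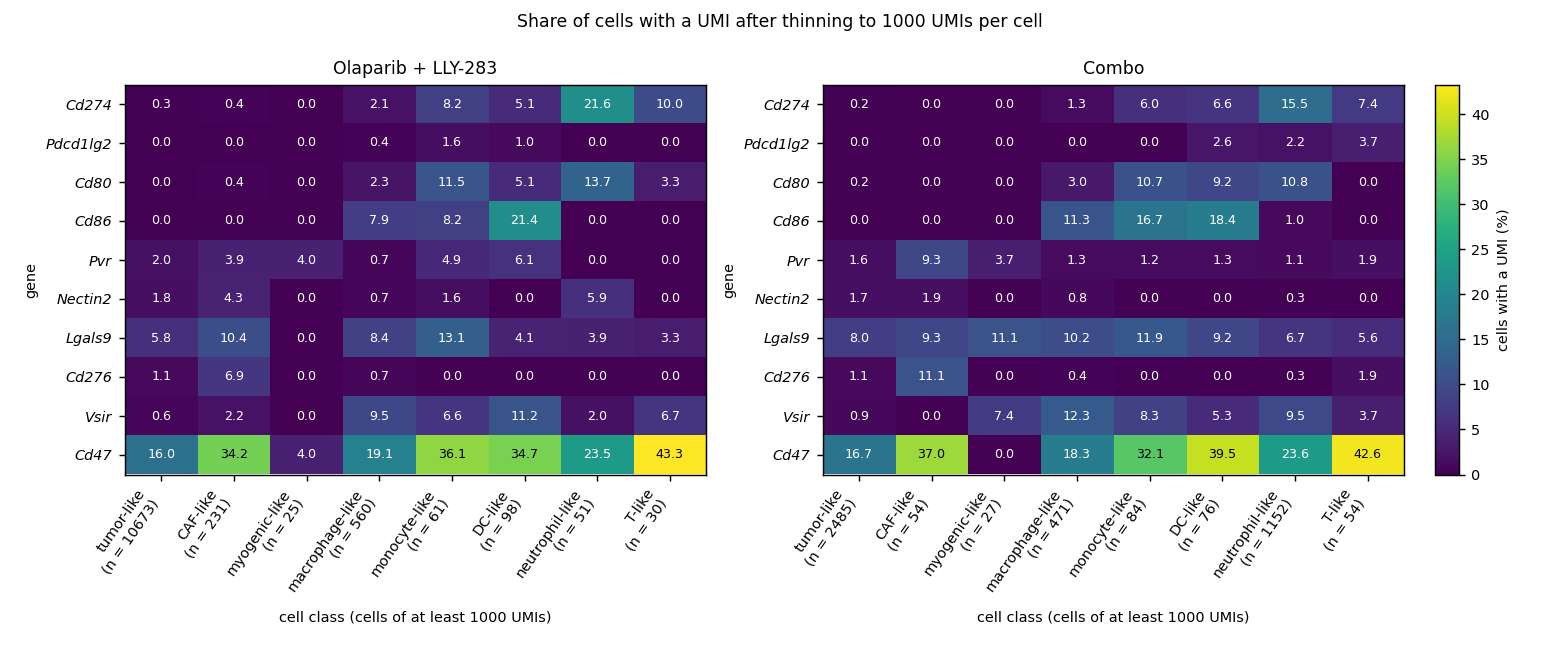
Percent of cells with a UMI after each cell was thinned to 1000 UMIs, by gene (rows) and class (columns), for each library, as color. Cd47 is found in 16.0% and 16.7% of tumor-like cells, and Cd274 in 21.6% and 15.5% of neutrophil-like cells.

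Among the 8 classes with at least 20 cells in both libraries, 8 of the 10 members had their highest level in the same class in both libraries by CPM, the exceptions being Pdcd1lg2 and Vsir, and 6 did so by thinned share. The highest class stood apart from the next in both libraries, with intervals that did not meet, for Cd274 (neutrophil-like), Nectin2 (CAF-like) and Cd276 (CAF-like). For the other members, neighbors at the top of the order could not be separated in at least 1 library. The carriers depended on how cells were classed. Of the 20 highest classes by CPM, 1 for each gene and library, 10 changed with cells classed by their own marker UMIs, including Cd86 and Pvr in both libraries, and 7 changed with 50 principal components, including Cd274 in the first library and Cd80 in both. For Cd276 the highest class by CPM was CAF-like under every classing tried.

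For the difference between libraries, a gene was called in a class when its levels lay 1.5-fold or more apart and its UMIs summed to 100 or more. In tumor-like cells 8 members reached this minimum and 0 were called, where 4.52% of 13597 genes were called higher in Combo and 2.21% lower. In macrophage-like cells 7 members reached it and 0 were called (background 4.61% higher and 3.04% lower). The 3 members in monocyte-like (10.2% and 4.46%), 2 in DC-like (9.45% and 5.2%), 1 in T-like (10.5% and 6.92%) and 4 in CAF-like cells (4.77% and 2.56%) were also not called, and no member reached the minimum in myogenic-like cells (6.44% and 10.5%). In neutrophil-like cells 2 of 5 members were called higher in Combo, Lgals9 and Vsir, and 0 lower, where 21.2% of 3310 genes were called higher and 16.1% lower.

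Lgals9 in neutrophil-like cells had 17 UMIs, 37.0 CPM (21.6 to 59.3), and then 181 UMIs, 71.4 CPM (61.4 to 82.6), in Combo, a log2 ratio of 0.95 (0.23 to 1.76). Its thinned shares, 3.92% and 6.68%, differed by 2.76 percentage points with an interval of −6.62 to 6.02 that included 0. The level was 61.8% and 89.1% of that in tumor-like cells, where Lgals9 was also higher in Combo, and the part of free RNA in the difference was not tested.

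Vsir in neutrophil-like cells had 24 UMIs, with an interval of 33.5 to 77.7 CPM, and 264 UMIs, 104 CPM (92.0 to 118), in Combo, a log2 ratio with an interval of 0.39 to 1.66. A thinned UMI was found in 1 of 51 cells, 1.96%, and in 110 of 1152 cells, 9.55%, a difference of 7.59 percentage points (−0.901 to 10.0). Only 51 neutrophil-like cells of the first library reached 1000 UMIs, since 586 lay below, against 105 below in Combo, so the thinned comparison rests on few cells. The clusters that made up the class also differed between libraries, as given below.

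In the tumor-like class the members' ratios lay on both sides of 0. Cd80 had the largest, 0.56 (0.15 to 0.98), at 79 and 135 UMIs, and its thinned shares differed by 0.154 percentage points (0.0231 to 0.425). Cd274 had a log2 ratio of 0.41 (0.19 to 0.62), Vsir 0.45 (0.30 to 0.60), Lgals9 0.42 (0.37 to 0.46) and Cd47 0.13 (0.10 to 0.15), all higher in Combo. Nectin2 had −0.37 (−0.46 to −0.28) and Cd276 −0.22 (−0.32 to −0.11), both lower in Combo. These intervals excluded 0, but every one of these differences was under the 1.5-fold rule. The makeup of the class by cluster also differed between libraries. The cluster led by Il24 had 152 and 381 cells, and that led by Ube2c had 397 and 11. The part of this makeup in these and other tumor-like ratios was not tested. The thinned differences in share included 0 for Cd274 (−0.049 percentage points, −0.228 to 0.248), Vsir, Cd47, Nectin2 and Cd276. The median over the 8 members was 0.27, beside 0.07 over all genes. In macrophage-like cells the median of 7 members was 0.21, beside 0.06 over all genes. Pvr had the largest ratio there, 0.45 (−0.10 to 1.03), with Cd86 at 0.31 (0.04 to 0.59) and Lgals9 at 0.21 (−0.02 to 0.45).

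**Figure D3:**
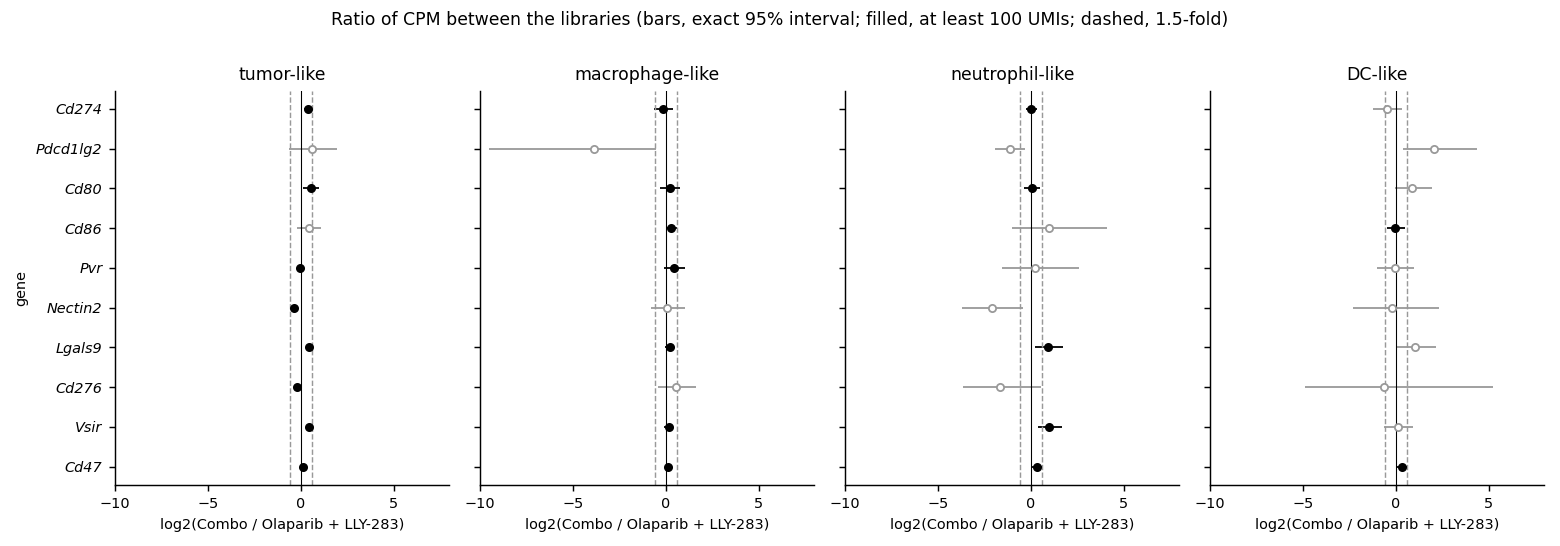
Log2 ratio of the class level, Combo over Olaparib + LLY-283, for the 10 genes in tumor-like, macrophage-like, neutrophil-like and DC-like cells, with exact 95% intervals of counting error and dashed lines at 1.5-fold. Filled points have 100 UMIs or more, and of these only Lgals9 and Vsir in neutrophil-like cells lie past a dashed line.

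Tumor-like cells were not uniform in these ligands. Cells led by Ifit3, Ifit1, Ifit3b and Cxcl10, which are interferon-induced genes, numbered 326 and 79 and had the highest level of Cd274, Lgals9 and Cd47 among the 10 and 9 tumor-like clusters with at least 20 cells. The comparison between clusters is a description, and the 10 genes were left out of the genes used for clustering. Cd274 was 13.7 and 17.8 CPM there, and 1.32 and 1.93 CPM in the lowest cluster, led by Cdkn3 and Fam89a, a range of 10.4-fold and 9.24-fold. Lgals9 reached 168 CPM there in Combo against 54.2 CPM in its lowest cluster, and Cd47 reached 271 CPM in the first library.

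A different tumor-like cluster, led by Adm, Pgf, Dusp4 and F3 and holding 2386 and 478 cells, was highest for Pvr and lowest for Cd276, Lgals9 and Cd47. Pvr was 41.0 and 47.3 CPM there against 8.46 and 7.97 CPM in the lowest cluster, or 4.85-fold and 5.94-fold. Cd276 was 8.41 and 6.09 CPM there, and its highest level in any tumor-like cluster was 18.5 and 15.2 CPM. The cluster highest in Pvr was therefore not the cluster highest in Cd274 in either library. Cd274 in the cluster led by Adm was 3.06 and 3.96 CPM, beside medians over clusters of 2.59 and 3.00 CPM. Nectin2 ranged over clusters from 15.4 to 25.9 CPM, 1.68-fold, in the first library and from 6.96 to 21.7 CPM, 3.11-fold, in Combo.

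Within tumor-like clusters the direction between libraries was repeated for several members. Lgals9, Cd47 and Cd80 were higher in Combo in 9 of 9 clusters, Cd274 in 8 of 9 and Vsir in 7 of 9. Cd276 was lower in 9 of 9 and Nectin2 in 8 of 9, while Pvr was higher in 5 and lower in 4. The interval of the ratio included 0 in 8 of the 9 clusters for Cd274 and Cd80, in 7 for Cd47, Vsir and Cd276, in 5 for Nectin2 and in 2 for Lgals9. In those 7 clusters the Cd47 ratio was 0.02 to 0.05, below the tumor-like median of 0.07 over all genes. Directions by cluster were not counted over all genes. The clusters come from the same 2 libraries and are not replicates. In the cluster led by Ifit3, Lgals9 had a log2 ratio of 0.50 (0.33 to 0.68), Cd47 0.21 (0.09 to 0.33) and Cd274 0.37 (−0.15 to 0.91), the last from 52 and 75 UMIs.

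**Figure D4:**
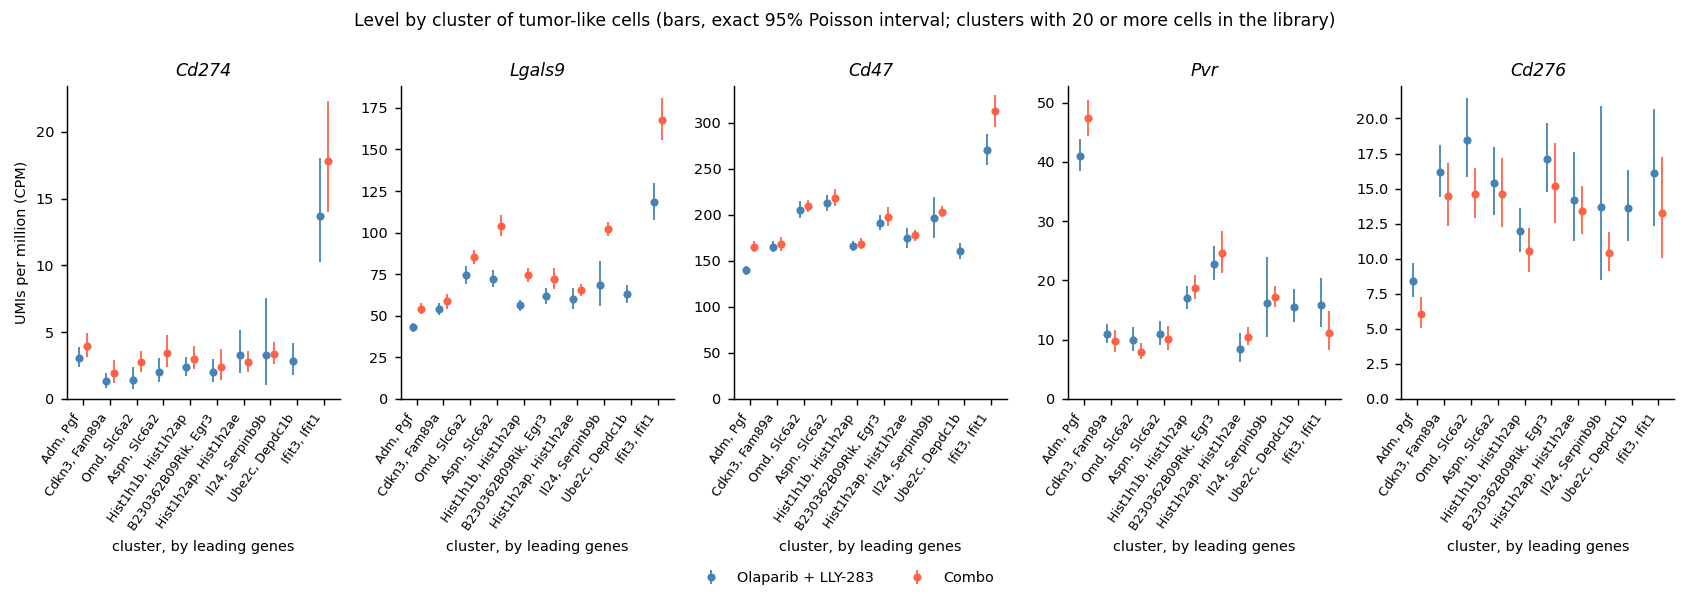
Level (CPM) of Cd274, Lgals9, Cd47, Pvr and Cd276 in the tumor-like clusters with at least 20 cells, with exact 95% intervals, for both libraries. Cd274 reaches 13.7 and 17.8 CPM in the cluster led by Ifit3 and Ifit1, and Pvr 41.0 and 47.3 CPM in the cluster led by Adm and Pgf.

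Neutrophil-like cells were also divided. Cd274 was highest in the cluster led by Hcar2 and the chemokine genes Ccl3 and Ccl4 (27 and 400 cells), with 729 CPM from 18 UMIs and 627 CPM from 517 UMIs. The cluster led by Retnlg, Stfa2 and Ccl3 had 328 CPM from 72 UMIs and 241 CPM from 6 UMIs, in 308 and 23 cells. The cluster led by Retnlg, S100a9 and G0s2 had 153 and 141 CPM in 274 and 103 cells, and the cluster led by Hdc, Cxcr2 and Il1r2 had 4 UMIs and 141 UMIs, the latter 124 CPM, in 23 and 542 cells. The cells led by Retnlg, Pglyrp1 and Hp had 58.6 CPM in 189 Combo cells and 2 UMIs in 5 cells of the other library.

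The makeup of the class thus differed, and the near-equal class levels of Cd274 were sums over different clusters. Within the 4 clusters with at least 20 cells in both libraries, Cd274 was lower in Combo in 4 of 4, with log2 ratios from −0.66 to −0.12, and all 4 intervals included 0. Lgals9 was higher in 4 of 4 (0.46 to 1.33) and Vsir in 3 of 4 (−0.25 to 1.24), and again every interval included 0, with 1 to 8 UMIs of Lgals9 per cluster in the first library. The 2 calls of the class were therefore not resolved within its clusters at this depth. Cd80 was higher in 2 and lower in 2.

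**Figure D5:**
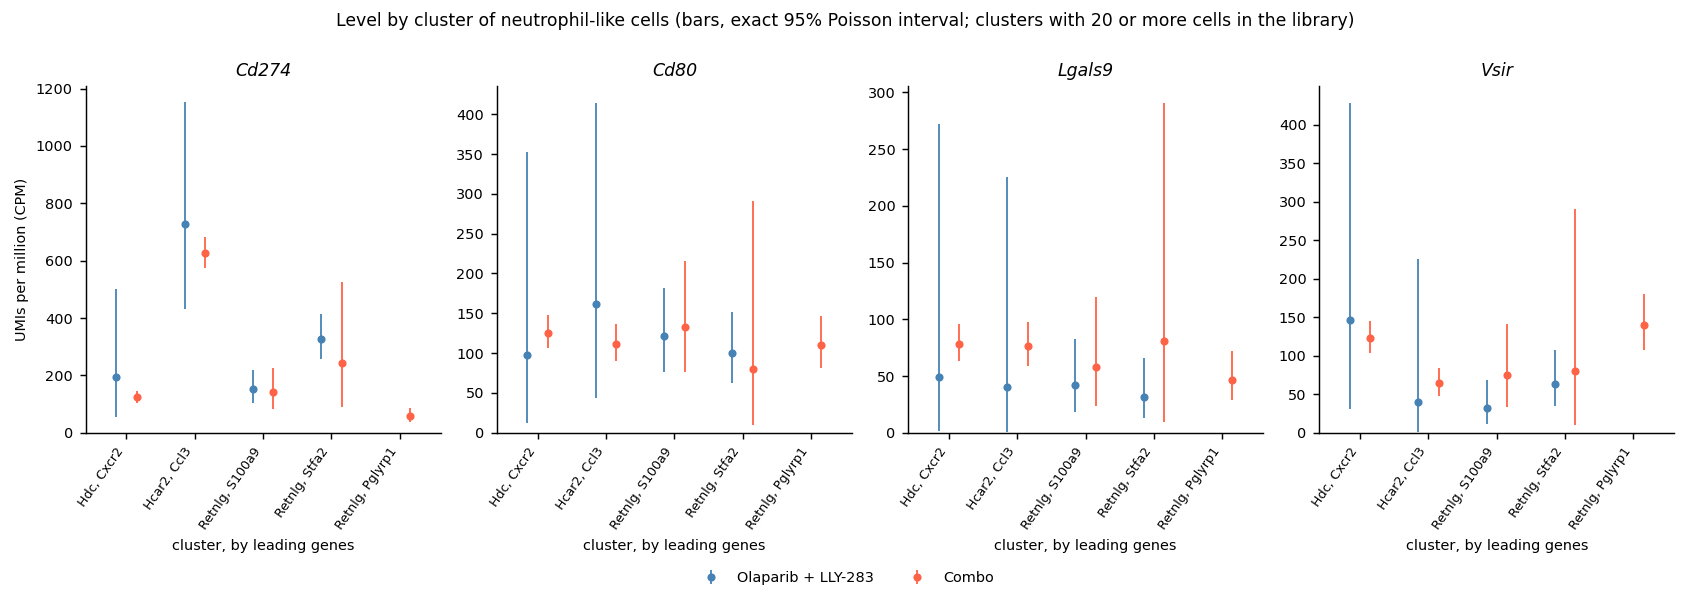
Level (CPM) of Cd274, Cd80, Lgals9 and Vsir in the neutrophil-like clusters, with exact 95% intervals, for both libraries. Cd274 reaches 729 and 627 CPM in the cluster led by Hcar2, Ccl3 and Ccl4, against 153 and 141 CPM in that led by Retnlg, S100a9 and G0s2.

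Macrophage-like cells fell into cells led by C1q genes (336 and 221), by Ccr2 (188 and 177) and by Lyve1 (144 and 80). Cd274 was 31.2 and 33.5 CPM in the C1q cells, 16.6 and 14.4 CPM in the Ccr2 cells, and 21.8 and 8.10 CPM in the Lyve1 cells. Lgals9 was highest in the Lyve1 cells, at 146 and 212 CPM, with a log2 ratio of 0.53 (0.14 to 0.94), and Vsir in the Ccr2 cells was 69.2 and 120 CPM, with 0.79 (0.19 to 1.45). Cd86 was 107 and 111 CPM in the C1q cells, and 39.2 and 79.4 CPM in the Lyve1 cells. Cd86 and Lgals9 were higher in Combo in 3 of 3 clusters.

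Mature DCs, which upregulate costimulators when they migrate, were read as the DC-like cells with at least 2 of 6 maturation genes, 9 of 118 and 13 of 78 cells. A further 15 and 23 cells held exactly 1 of these genes, and 2 and 5 of the selected cells held exactly 2. Cd274 was 242 CPM (66.0 to 620, 4 UMIs) and 203 CPM (134 to 295, 27 UMIs) in the mature cells. In the rest it was 70.2 CPM (40.9 to 112) and 29.7 CPM (18.1 to 45.8). Cd86 was 605 CPM (290 to 1113) and 308 CPM (221 to 417) in the mature cells. In the rest it was 161 CPM (115 to 220) and 162 CPM (133 to 195). After thinning, 5 of 9 and 2 of 13 mature cells held a Cd86 UMI, against 20 of 89 and 10 of 63 others. Cd80 was 60.5 and 120 CPM (68.6 to 195 in Combo) in mature cells, and 41.3 and 69.7 CPM (51.2 to 92.7 in Combo) in the rest. Pdcd1lg2 was at 0 UMIs in the 9 mature cells of the first library, and in Combo it had 180 CPM, with 24 of the 39 DC-like UMIs in 7 mature cells. The 0 UMIs have an upper bound of 223 CPM, so the libraries cannot be told apart here.

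Vsir in Combo was lower in mature cells, with 7.50 CPM (0.19 to 41.8) from 1 UMI against 63 UMIs (71.8 to 120 CPM) in the other DC-like cells. In the first library it had 0 UMIs in the 9 mature cells, an upper bound of 223 CPM that does not separate them from the 78.5 CPM of the others. C1qa was also lower in mature cells, 60.5 and 22.5 CPM against 1190 and 1875 CPM. Median UMIs per cell were alike in the mature and other cells, 1856 and 1799 in the first library and 8879 and 9834 in Combo. Between libraries these medians differed, and which cells are read as mature depends on depth. The values rest on few cells, and those in the mature cells of the first library on 4 UMIs or fewer for Cd274, Cd80 and Pdcd1lg2.

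The receptors were sparse in the 82 and 57 T-like cells. Pdcd1, the PD-1 gene, had 8 UMIs, 98.3 CPM (42.4 to 194), and 65 UMIs, 184 CPM (142 to 235), intervals that met. Ctla4 had 19 and 84 UMIs, 233 and 238 CPM, Cd28 had 18 and 48 UMIs, 221 and 136 CPM, and Icos had 17 and 82 UMIs, 209 and 232 CPM. T-like cells held 81389 and 353287 UMIs in all, so raw UMIs of a gene do not compare between libraries by themselves. Of the receptors of Pvr and Nectin2, Cd226 had 4 and 32 UMIs (49.1 and 90.6 CPM) and Cd96 3 and 18 (36.9 and 51.0 CPM). Tigit had 0 and 2 UMIs and Pvrig 0 and 3. Havcr2, the TIM-3 gene, had 3 and 35 UMIs (36.9 and 99.1 CPM), and Btla 0 and 3. Lag3 had 10 and 26 UMIs (123 and 73.6 CPM), and Cd160 10 and 15 (123 and 42.5 CPM), both lower in Combo by CPM. Selplg, the gene of PSGL-1, a partner of VISTA, had 40 and 108 UMIs, 306 CPM in Combo, and was the only receptor of 2 with 100 UMIs or more called there, lower in Combo. No cluster was named NK-like, but NK markers summed to 2445 and 1792 CPM in T-like cells, and 18 and 20 of these cells held a UMI of Ncr1 or Klrb1c. In Combo those 20 cells held 28 of the Havcr2 UMIs, in 3 cells, and 14 of the Cd160 UMIs. Without them Pdcd1 was 131 CPM (56.7 to 259) from 8 UMIs and 379 CPM (285 to 493) from 55 UMIs, under the minimum of 100 for a call. Which cells are taken out by a UMI of Ncr1 or Klrb1c depends on depth, with medians of 873 and 4039 UMIs per T-like cell.

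Other genes of these pathways were taken from 4 lists with 56 genes in all. The counts of each list stand beside these shares of all genes called by the same rule. In tumor-like cells 4.52% were called higher and 2.21% lower, and in macrophage-like cells 4.61% and 3.04%. In neutrophil-like cells the shares were 21.2% and 16.1%, and in DC-like cells 9.45% and 5.2%. Of 15 receptor genes, 5 reached the minimum in tumor-like cells and 1 was called higher (Sirpa, the CD47 receptor, 165 and 322 UMIs), 4 did in macrophage-like cells with 0 called, and 2 did in neutrophil-like cells with 2 called higher. Those were Selplg, 109 and 282 CPM with a log2 ratio of 1.37 (0.96 to 1.82), and Sirpa, 61.0 and 93.5 CPM. In DC-like cells 2 reached it and 0 were called. The medians of the list were 0.36 in tumor-like, 0.05 in macrophage-like, 1.00 in neutrophil-like and 0.30 in DC-like cells, beside 0.07, 0.06, 0.07 and 0.01 over all genes.

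Of 12 other inhibitory ligands, 1 of 8 was called higher in tumor-like cells. This was Cd200, whose receptor restrains myeloid cells, with 42 and 252 UMIs, a log2 ratio of 2.37 (1.89 to 2.88). Ceacam1 was called higher in macrophage-like cells, 13.9 and 30.1 CPM, as 1 of 4, and Thbs1, another CD47 ligand, was called lower in DC-like cells, 143 and 84.2 CPM, as 1 of 3. In neutrophil-like cells 0 of 4 were called. The medians were 0.09, 0.02, −0.55 and −0.17 in tumor-like, macrophage-like, DC-like and neutrophil-like cells.

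Of 11 other costimulators, 2 of 4 were called higher in tumor-like cells, Cd83 (0.373 and 0.784 CPM) and Icam1 (0.601 and 0.901 CPM), both at low levels. Icam1, an adhesion molecule that T cells bind, was also called higher in macrophage-like cells, 52.0 and 79.4 CPM, and in neutrophil-like cells, 56.6 and 109 CPM. Tnfsf9, the 4-1BB ligand, was called lower in macrophage-like cells, 57.4 and 37.6 CPM, and in DC-like cells, 143 and 90.4 CPM. Tnfsf14 was called higher in neutrophil-like cells, from 14 and 139 UMIs. The counts were 1 higher and 1 lower of 4 in macrophage-like, 2 higher of 2 in neutrophil-like and 1 lower of 3 in DC-like cells, with medians of 0.16, 0.90 and −0.07, and 0.43 in tumor-like cells.

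The last list held 18 regulators of Cd274 and Cd47, such as interferon receptors, STATs and IRFs. In neutrophil-like cells 9 of 14 were called higher and 0 lower, where 21.2% of all genes were called higher and 16.1% lower. The median in neutrophil-like cells was 0.71, beside 0.07 over all genes. Irf1, an interferon-induced activator of Cd274, had 111 and 257 CPM there (1.21, 0.80 to 1.65), and Socs1, a brake on this pathway, 47.9 and 95.5 CPM. Within the neutrophil-like clusters Irf1 was −0.06 in the Hcar2 and Ccl3 cells and −0.08 in the Retnlg and S100a9 cells. It was 1.46 (−0.40 to 4.52, from 2 and 307 UMIs) in the Hdc and Cxcr2 cells. Of the 4 intervals only that of the Retnlg and Stfa2 cells (1.92, 0.25 to 3.39, from 14 and 6 UMIs) excluded 0. The makeup of the class by cluster also differed between libraries, and its part in this result was not tested. In tumor-like cells 1 of 18 was called, Irf1, with 4164 and 9446 UMIs, 37.9 and 74.0 CPM, a log2 ratio of 0.97 (0.91 to 1.02), and it was higher in Combo in 9 of 9 clusters, by 0.36 to 1.38. The median of the list in tumor-like cells was 0.07, equal to that of all genes.

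In DC-like cells 4 of 9 regulators were called higher, among them Ifngr2 (69.6 and 124 CPM), Stat3 (112 and 182 CPM) and Irf1 (101 and 162 CPM), with a median of 0.52. In macrophage-like cells 0 of 15 were called higher and 2 lower, Myc (26.6 and 15.1 CPM) and Cmtm4 (27.8 and 16.9 CPM), with a median of 0.14. In monocyte-like cells 3 of 7 were called higher, in T-like 1 of 4 and in CAF-like cells 1 of 9. Over all genes the shares called higher in these classes were, in that order, 10.2%, 10.5% and 4.77%.

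The genes whose levels followed each member most closely over the 8 classes in both libraries (16 points, 12992 genes, Pearson r of log2(CPM + 1)) were listed as a description, since points share a library and its depth. For Cd274 they were Gm44292 (0.972), Btg1 (0.956) and Gm44164 (0.955), for Cd80 Csf2rb (0.944), Cxcl2 (0.915) and Plekhm2 (0.908), and for Cd86 Ctsc (0.970), Cyba (0.969) and Cd83 (0.969). For Vsir they were Ssh2 (0.972), Itgb2 (0.965) and Rhog, and for Lgals9 Larp4b, Ppp2ca and Rcbtb2 (0.904). For Pvr they were Cnpy3 (0.962), Med1 and Heatr5a (0.939), for Nectin2 Calhm2 (0.898), Tmem158 (0.894) and Nsmf (0.883), and for Cd276 Maged2 (0.928), Arhgap29 and Pgrmc1 (0.896). For Cd47 they were Srsf11 (0.924), Akap13 (0.917) and Celf2 (0.894), and for Pdcd1lg2 Gm4759 (0.918), Pecam1 and Ctse (0.905), with only 179 Pdcd1lg2 UMIs in these classes.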

How the data were processed

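Per the file headers and the labels, the authors sequenced 2 libraries with the 10x Genomics 3′ chemistry, aligned them to mm10 with Cell Ranger and deposited a matrix of raw counts for each, with each cell's UMIs for each gene and no normalization. The submitters' processing notes also name bcl2fastq 5.0.1 and Seurat 4.1.0. The libraries held 147214934 and 162522700 UMIs, with medians of 7376 and 3613.5 per cell. All 10 genes, and the marker and pathway lists, were chosen with earlier results of these data known.

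Cells with under 200 genes or with 20% or more mitochondrial UMIs were left out. Scrublet's own threshold called 0 doublets, so the cells with the highest scores were removed up to the expected rate of 0.8% per 1000 cells, 2069 and 296 cells. This was set after its result was seen. Cells were scaled, 2000 variable genes without the members and pathway genes were reduced to 30 principal components, joined to 20 neighbors and clustered at resolution 1.3, and cells outside tumor-like clusters were clustered again in the same way (Python 3.11.15, scanpy 1.11.5, leidenalg 0.10.2, numpy 2.4.6, scipy 1.17.1, scikit-learn 1.9.0). A cluster was named X-like when at least 3 markers of a class were over 2-fold above the other cells, with a mean log2 fold of 1 or more, and no other class had more markers among the 10 leading genes. Clusters of low depth needed a marker among those genes. Tumor-like clusters needed Krt8 and Krt18 over 2-fold above their level in the named clusters. The naming rule was set with the data in view. A keratin-positive cluster with at least 3 markers of another class among its 10 leading genes, here neutrophil, was called mixed (246 and 46 cells), and 759 and 762 low-UMI cells with keratin were not used.

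UMIs were summed over a class and library. CPM has exact Poisson intervals, shares exact Clopper-Pearson intervals and ratios exact conditional binomial intervals, all at 95%. A count of 0 allows up to 3 counts. Positions are from GENCODE M21, whose identifiers match 10 of 10 members, and promoters from RefSeq, which held 8 of 10. Named are all members, the up to 4 called genes of each list with the largest ratio in tumor-like, macrophage-like, neutrophil-like and DC-like cells, receptors in T-like cells and the 3 genes most alike to each member. Other genes beside them served as markers. The values of 1 gene of the regulator list are not reported here. The fold and interval calculations were tested on simulated data. Alternatives changed the filter, doublets, resolution, components, variable genes, class definition, scaling, thinning and size rule.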

Additional observations from a re-analysis of the deposited data

Results flagged for a closer look

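In the Combo library 1586 cells, with a median of 746 UMIs, were left out because 20% or more of their UMIs were mitochondrial. Cells that no comparison uses still held more UMIs of 8 members than the 3 that a count of 0 allows. Of the immune ligands, Cd274 had 29 UMIs in these cells, 20.8 CPM, Cd80 had 11 and Vsir 13. Lgals9 had 53 UMIs, 38.0 CPM. Pvr had 19 UMIs, Nectin2 8 and Cd276 14. Cd47 was again the most abundant, with 92 UMIs, 66.0 CPM. These CPM are over all 1393631 UMIs of the cells, of which 768213 were not mitochondrial. Over the latter alone Cd274 had 37.7, Lgals9 69.0 and Cd47 120 CPM. Cd86 had 3 UMIs and Pdcd1lg2 0, which is within that limit. The 86 such cells of the Olaparib + LLY-283 library held 5 UMIs of Cd274 and 7 of Cd47. The cell types of these cells and the source of the UMIs were not tested.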

How the results depend on the processing

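No paired analysis was possible because each group had 1 library. Of the log2 ratios of the members under the alternatives, 758 stayed within the interval of the reported value and 30 moved out of it. These include ratios from under 100 UMIs, whose wide intervals make staying inside say little. Of the CPM values in the highest class, 169 stayed within their interval and 28 moved out. Of the counts, 26 changed by over 1.5-fold or to or from 0, and 114 did not. The 2 called ratios kept their sign, but uncalled ratios near 0 did not always: Cd80 in neutrophil-like cells kept its sign under 6 of 12 alternatives, Cd86 in DC-like under 8 of 12, Lgals9 in monocyte-like under 8 of 11 and Vsir in macrophage-like under 9 of 12. Of 20 highest classes by CPM, 0 to 10 changed, and of those by share 3 to 14. In neutrophil-like cells Lgals9 was 0.79 to 1.34 and Vsir 0.84 to 2.13, each called under 11 of 12 alternatives, and Cd274 was −0.03 to 1.25. The number of members called higher there (2) was 4 with 50 principal components, 5 with cells classed by their own marker UMIs and 0 by a 2-fold rule, and the number called lower (0) was 3 with at least 1 UMI per library in place of 100. Where the result was 0, members called higher were 1 in tumor-like cells with doublets kept, with the mean over cells or with at least 1 UMI. They were 1 in macrophage-like cells, Pvr, with doublets kept, at resolution 0.8 or 2, or with all genes allowed as variable. They were 1 in DC-like cells with 50 components, 2 by own markers and 3 with at least 1 UMI. Members called lower became 1 in macrophage-like cells at resolution 2 or with at least 1 UMI, and 1 in DC-like cells with at least 1 UMI. Calls also appeared in monocyte-like cells for Cd86 (up to 1.53) and Lgals9 (0.84) with own markers and for Cd47 without the 5 top cells (0.68) or at resolution 2 (0.59), in CAF-like cells for Cd276 (0.61) with doublets kept, and in T-like cells for Cd47 (0.79) without the top cells. Genes of the pathway lists called lower in macrophage-like cells (3) were 1 with doublets kept. By median-ratio scaling they were 2 lower in tumor-like (0), 1 higher in macrophage-like (2) and 1 lower in neutrophil-like cells (0). With at least 20 UMIs they were 8 higher (5) and 1 lower (0) in tumor-like, 4 higher (2) in macrophage-like, 3 lower (0) in neutrophil-like and 10 higher (4) in DC-like cells. With 50 components no cluster was named monocyte-like. The cause of these changes was not tested. Pooled mice, the depth gap between libraries and classes of under 100 cells limit every difference between libraries, and free RNA limits every low level.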
